A study of Saccharomyces cerevisiae with 18 samples.

Results

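The genes described here encode the cytosolic ribosomal proteins of Saccharomyces cerevisiae. They were taken as all S. cerevisiae probe sets whose gene symbol on the array platform starts with RPL (large subunit) or RPS (small subunit) followed by a digit. The rule gave 142 probe sets for 122 genes, of 5498 S. cerevisiae probe sets tested. The large subunit had 77 probe sets for 70 genes, and the small subunit had 65 probe sets for 52 genes. Of the 132 genes that match the same rule in the RefSeq gene table, 10 had no probe set under their own symbol. The rule itself uses symbols and no measured value, but it was set with earlier results of these data known.

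The study measured total RNA from 18 batch cultures on a yeast oligonucleotide array. The strains were derived from the CEN.PK 530-1C host and carried a 2 μm plasmid with the POT1 gene. NC carried that plasmid with the TPI1 promoter only and made no amylase. AAC expressed an amylase behind the alpha factor leader from the TPI1 promoter and is labelled as the high producer, and AAP expressed it from the TEF1 promoter and is labelled as producing less. Each strain was grown with and without air, with 3 biological replicates in each of the 6 groups. Cultures of 500 ml in SD-SCAA medium (30 °C, 600 rpm) were harvested early in the glucose phase, near an optical density of 1. AAC and AAP differ in promoter as well as in amylase output, so those cannot be told apart. The strains also differed in the signal of the plasmid's POT1 gene (values below), which cannot be told apart from the strain either. The same mass of total RNA (250 ng) was labelled for every array, so the amount of a transcript per cell was not measured.

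A ribosomal protein gene in this yeast is usually present as a pair of near-identical copies, named A and B, kept since an ancient duplication of the genome. Transcription of these genes rests on the factors Rap1, Fhl1 and Ifh1, and it follows growth rate and nutrient signals through the TOR and Sch9 kinases. Their messages make up a large share of the messenger RNA of a growing cell, and many of the genes contain introns although introns are rare in this yeast. Some ribosomal proteins limit their own synthesis at the level of splicing or mRNA decay.

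The array labelled AAP aerobic replicate 3 stood apart from the other 2 of its group. The S. pombe tpi1 probe set, which reads the plasmid's POT1 gene, had log2 signals of 12.42 and 12.38 on AAP aerobic replicates 1 and 2 and of 9.24 on replicate 3, against 8.98 to 9.41 on the aerobic AAC arrays. Over all tested probe sets its mean correlation was 0.978 with its own group and 0.993 with aerobic AAC. Of the 142 ribosomal protein probe sets, 91 had a value on this array nearer to the AAC aerobic mean than to the mean of the other AAP aerobic arrays, beside 69.6% of all tested probe sets. These values go against its label, and whether the label is wrong was not tested. Results that rest on aerobic AAP are therefore given without this array as well where that ends a call or moves a value by about 1.5 times or more. All 18 arrays also entered 1 shared estimate of the spread, and counts from other groups that move by more than 1.5 times without it are given both ways as well. Host TPI1 was at background on all arrays (5.23 to 5.52). The S. pombe tpi1 probe set read 6.17 to 6.35 in NC with air and 6.42 to 7.29 without. In anaerobic culture it read 9.53 to 10.50 in AAC and 12.42 to 12.48 in AAP. The part of this signal in the differences between strains was not tested. The median over all tested probe sets lay between 7.08 and 7.13 on every array. Signals from 3′ and 5′ probe sets of the same transcript are a measure of RNA quality. For ACT1 they differed by 0.52 to 0.63 on the log2 scale in aerobic NC and by 0.52 to 1.12 in the other groups. On AAP aerobic replicate 3 the ACT1 difference was 0.994, beside 0.518 and 0.529 on replicates 1 and 2. For SRB4 it was 1.785 beside 1.622 and 1.544, and for SPT15 0.965 beside 1.028 and 1.021. The part of RNA quality in the values of that array was not tested.

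All 142 probe sets were above background, taken as the 95th percentile of the array's S. pombe probe sets (log2 signal 5.58). Their mean log2 signals ran from 8.03 to 12.16 with a median of 11.27, beside a median of 7.11 for all tested probe sets. Of the members, 98.6% were among the brightest 10% of tested probe sets. The brightest probe set on any array read 12.58 to 12.81, so many members lay near the upper end of the scale. Differences between groups were small. The range over the 6 group means had a median of 0.20 for the members and 0.33 for all tested probe sets, and the widest member range was 0.55. A range over 1 on the log2 scale was found for 0 members and for 8.57% of tested probe sets.

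Aerobic NC had the highest signals. Its group mean was the highest of the 6 for 95 of 142 members, beside 24.3% of all tested probe sets, and the lowest for 0 members, beside 17.9%. Anaerobic AAP was highest for 34 members, a share no larger than the 24.8% of all tested probe sets that were highest there. Aerobic AAC was lowest for 77 members, beside 22.9% of all probe sets, and anaerobic NC was lowest for 33, beside 15.3%. The members' median on single arrays was 11.33 to 11.42 in aerobic NC, 11.11 to 11.26 in aerobic AAC and 11.23 to 11.36 in aerobic AAP. In anaerobic cultures it was 11.13 to 11.30 in NC, 11.17 to 11.26 in AAC and 11.29 to 11.30 in AAP. The aerobic NC arrays did not overlap with the aerobic AAC arrays, and the medians of the anaerobic groups overlapped except for those of AAC and AAP.

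**Figure D1:**
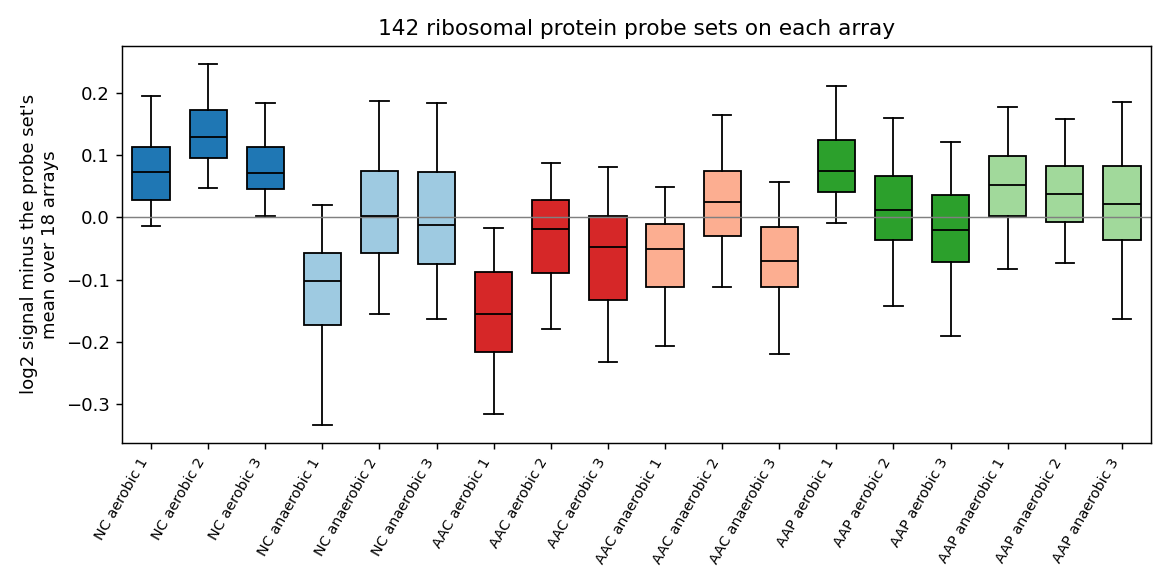
Log2 signal of the 142 ribosomal protein probe sets on each of the 18 arrays, each probe set centred on its own mean over all arrays. Boxes give the quartiles and the median, whiskers the 5th to 95th percentile, and the 3 aerobic NC arrays are all above 0 at the median while the 3 aerobic AAC arrays are all below it.

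The high producer was first compared with the empty-plasmid strain in aerobic culture. Ribosomal protein messages of both subunits were lower in AAC than in NC, by a median of 0.17 on the log2 scale, and 139 of 142 members had a difference below 0. In limma's fit, 65 members fell and 0 rose at an adjusted p under 0.05, beside 9.99% of all tested probe sets lower and 9.42% higher, and the median over all tested probe sets was -0.025. The large subunit had 40 of 77 members lower (median -0.166) and the small subunit 25 of 65 (median -0.169). Of the members, 102 had no overlap between the 3 AAC and the 3 NC arrays, beside 51.7% of all tested probe sets. The changes were small in size: 17 members differed by more than 1.25-fold. The members with a difference above 0, named after their values were seen, were RPL8A (own probe set), RPS23A (shared probe set) and RPS31, and none of them passed the test.

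RPL18B, for a large subunit protein, had the largest difference. The probe set of RPL18B alone read 9.46, 9.67 and 9.52 in aerobic NC and 9.08, 9.13 and 8.96 in aerobic AAC. The 3 AAC arrays were the lowest of all 18, and the groups did not overlap. The fall was 0.50 on the log2 scale (SE 0.10, 1.41-fold, adjusted p = 0.00505). RPS27A, for a zinc-binding protein of the small subunit, read 10.68, 10.67 and 10.59 in aerobic NC and 10.21, 10.32 and 10.16 in aerobic AAC. AAC was again below NC on every array, by 0.42 (SE 0.08, adjusted p = 0.00405). Both calls held under each alternative run, with adjusted p at most 0.0278 for RPL18B and 0.0201 for RPS27A.

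RPS19A and RPL13A were the other members with the largest separated differences. RPS19A, for a small subunit protein needed for 40S maturation, read 10.46, 10.58 and 10.41 in NC and 9.65, 10.19 and 10.18 in AAC. The groups did not overlap, but AAC replicate 1 lay far below the other 2 arrays of its group. The difference was -0.48 (SE 0.16, adjusted p = 0.0445), and -0.30 with an adjusted p of 0.189 without that array. The call was also lost without any 1 of the aerobic NC arrays or AAC aerobic replicate 3 (adjusted p 0.0527 to 0.138). RPL13A, a large subunit gene, read 10.74, 10.87 and 10.70 in NC and 10.44, 10.43 and 10.24 in AAC. Its difference of -0.41 (SE 0.12, adjusted p = 0.0315) missed the threshold when any 1 of the 6 arrays compared was left out, with adjusted p of 0.0541 to 0.122, and with cyclic loess (0.0834).

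The count for the whole group depended on how the arrays were scaled. With quantile normalization 40 members (28.2%) fell, beside 9.04% of all tested probe sets lower. With cyclic loess 23 (16.2%) fell and the median difference was -0.055, beside 5.87% of all tested probe sets lower. Leaving out 1 array gave 27 to 74 calls, the fewest without NC aerobic replicate 2, with 34 and 35 without replicate 1 of AAC and of NC, and 40 without replicate 3 of either. In each of these settings 0 members rose. ACT1 3′ minus 5′ signals were 0.52 to 0.63 in aerobic NC and 0.58 to 0.92 in aerobic AAC, and the part of RNA quality in this difference was not tested.

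Dimmer members moved more than brighter ones in this comparison. The median difference was -0.227 for the 71 members under a mean log2 signal of 11.27 and -0.136 for the 71 above it, with 39 and 26 falling. Single-copy genes had a median of -0.142 (6 of 17 fell), A copies -0.173 (26 of 62) and B copies -0.176 (33 of 63). Probe sets of 1 gene only had a median of -0.180 (60 of 113 fell), and probe sets that the platform's suffix marks as shared by several transcripts had -0.106 (5 of 29). The own and shared probe sets of RPL18B fell by 0.50 and 0.13. For the 20 genes with both kinds of probe set, both fell for 2 genes, only the own set for 5, only the shared set for 2, and neither passed for 11. RPL8A was the clearest disagreement, with 0.02 (adjusted p = 0.783) on its own probe set and -0.28 (adjusted p = 0.0197) on the shared one.

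**Figure D2:**
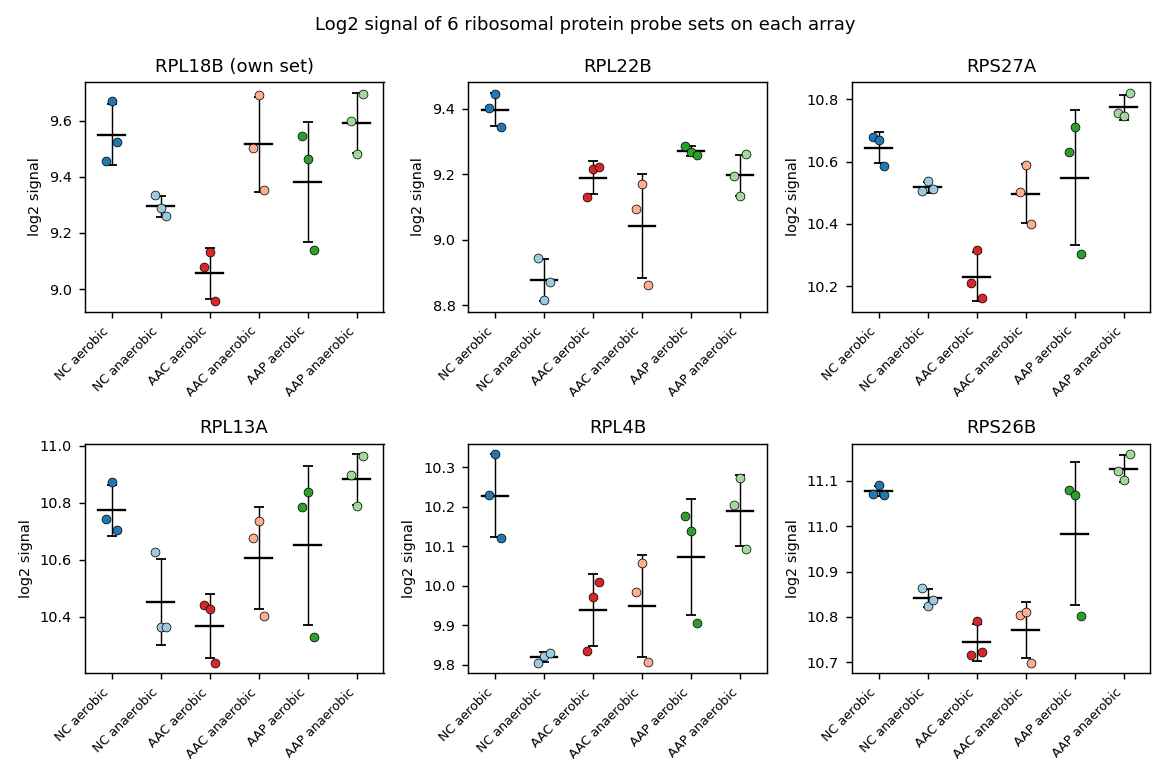
Log2 signal of 6 members on each array, with the 6 groups along the horizontal axis, lines for the group mean and bars for 1 SD (n = 3). RPL18B (own probe set) and RPS27A are lowest in aerobic AAC and RPL22B in anaerobic NC. The lowest point of aerobic AAP is replicate 3 in all 6 plots.

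The next question was whether growth without air changed these genes, and it was asked in each strain. In NC, 53 of 142 members (37.3%) fell without air and 0 rose, beside 28.0% of all tested probe sets lower and 22.2% higher. The median was -0.129 for the members and -0.017 for all tested probe sets. The large subunit had 32 of 77 falling (median -0.123) and the small subunit 21 of 65 (median -0.131). The aerobic NC arrays are the same as in the comparison with AAC above, so the 2 results share them. The excess over probe sets in general depended on the setting. It was larger with the gene length trend removed, where 74 members (52.1%) fell, beside 28.7% of all tested probe sets lower. With median centring 58 (40.8%) fell, beside 28.8%, and with quantile normalization 43 (30.3%), beside 26.4%. With cyclic loess 29 members (20.4%) fell and 2 rose, beside 25.1% of all tested probe sets lower, and without NC aerobic replicate 2 27 members fell, beside 23.1%, so in both the members were called less often than probe sets in general. Without NC anaerobic replicate 1 41 fell (28.9%) and 3 rose, beside 28.6% lower. Differences between 3′ and 5′ signals moved with this comparison: in NC they were 0.522 to 0.626 with air and 0.679 to 0.796 without for ACT1, 1.51 to 1.55 and 1.75 to 1.85 for SRB4, and 1.02 to 1.10 and 0.911 to 1.02 for SPT15. Those of ACT1 and SRB4 did not overlap, and the part of RNA quality in the result was not tested.

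RPL22B carried the largest oxygen difference of any member. It encodes the minor copy of a large subunit protein, and the protein is known to restrain the splicing of RPL22B itself. Signals were 9.40, 9.45 and 9.35 with air and 8.94, 8.81 and 8.87 without it. The arrays were well apart, with a fall of 0.52 (SE 0.06, 1.44-fold, adjusted p = 6.94e-06) that held under all alternatives run (adjusted p at most 9.37e-05). RPL4B, whose protein enters the large subunit early in its assembly, read 10.23, 10.33 and 10.12 with air and 9.80, 9.82 and 9.83 without. The anaerobic values were close together and all lower, by 0.41 (SE 0.08, adjusted p = 0.000636).

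RPS11B and RPS1A, both small subunit genes, had the next largest separated falls in NC. The own probe set of RPS11B read 10.63, 10.63 and 10.57 with air and 10.14, 10.35 and 10.27 without, a fall of 0.36 (SE 0.09, adjusted p = 0.00272). RPS1A read 10.73, 10.77 and 10.68 with air and 10.15, 10.53 and 10.48 without, a fall of 0.34 (SE 0.10, adjusted p = 0.0107). NC anaerobic replicate 1 was the lowest array for both, and without it the difference of RPS1A was -0.22 (adjusted p = 0.0568). RPL4B and the own set of RPS11B passed under every alternative run (adjusted p at most 0.00493 and 0.0144).

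In AAC the members moved the other way in the fit to the deposited values. There 15 rose and 1 fell without air, beside 21.7% of all tested probe sets higher and 22.8% lower, so the members were called less often than probe sets in general. The median was 0.045, beside 0.001 for all. This split turned with the processing: after a trend on gene length was removed 3 rose and 12 fell (median -0.028), with cyclic loess 12 rose and 10 fell (median -0.005), and with quantile normalization 15 rose and 6 fell. Of the large subunit 11 of 77 rose, and of the small subunit 4 of 65 rose and 1 fell. Leaving out 1 array gave 6 to 24 calls, with 6 without AAC anaerobic replicate 2 and 10 without AAC aerobic replicate 1.

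RPL18B led the rises in AAC, with 9.08, 9.13 and 8.96 on its own probe set with air and 9.50, 9.69 and 9.35 without. The groups did not overlap, and the rise was 0.46 (SE 0.10, adjusted p = 0.00168), at most 0.0127 over the alternatives. The own probe set of RPL14B rose by 0.28 (adjusted p = 0.0119), RPS27A by 0.27 (adjusted p = 0.0141) and RPL36A by 0.26 (adjusted p = 0.00929), and each of these missed the threshold after the length trend was removed (adjusted p up to 0.0708, 0.114 and 0.0893 over the alternatives). RPL14B was also lost without AAC aerobic replicate 1 or AAC anaerobic replicate 2, and RPS27A without AAC aerobic replicate 3 or AAC anaerobic replicate 2. The 1 fall was that of the shared probe set of RPS11B (-0.10, adjusted p = 0.0481), which was lost in 10 of 15 alternatives, including those without AAC aerobic replicate 2 or 3 or any anaerobic AAC array (adjusted p up to 0.168).

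In AAP few members responded to oxygen: 4 rose and 1 fell, beside 21.2% of all tested probe sets higher and 17.2% lower. Without AAP aerobic replicate 3, 1 rose and 3 fell, and the median went from 0.019 to -0.007, with 0.022 for all tested probe sets in the full fit. With cyclic loess 1 rose and 5 fell, with quantile normalization 2 and 3, and with median centring 0 and 3. RPS27A read 10.63, 10.71 and 10.30 with air and 10.76, 10.75 and 10.82 without. Every anaerobic array was above every aerobic one, with a difference of 0.23 (adjusted p = 0.0387) that was 0.10 without AAP aerobic replicate 3 and did not pass (adjusted p = 0.167). RPS25B (0.15), RPL8B (0.13) and RPS2 (0.11) rose and the own probe set of RPS18B fell (-0.25). Each of them missed the threshold in at least 5 of 14 alternatives, with adjusted p up to 0.247. Without AAP aerobic replicate 3, RPL8B and RPS2 missed it (adjusted p = 0.122 and 0.140), while RPS25B and RPS18B passed. Leaving out an anaerobic AAP array left 0 or 1 members called, RPS18B was also lost without AAP aerobic replicate 1 or 2, and RPL8B and RPS2 without AAP aerobic replicate 1.

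Averaged over the strains, oxygen had little effect on the group. In the mean of the 3 strains 3 members rose and 13 fell, beside 31.2% of all tested probe sets higher and 30.4% lower, and the median was -0.020 for members and 0.004 for all. The members that rose were RPL8B (0.12, adjusted p = 0.000816), RPS27A (0.12, adjusted p = 0.0337) and RPS25B (0.08, adjusted p = 0.0216). RPL22B fell most (-0.25, adjusted p = 3.13e-05), followed by RPS23B (-0.22), whose protein sits at the decoding centre. The own probe set of RPS18B fell next (-0.20), while its shared set did not pass. RPS27A was not of 1 direction in all strains: its difference was -0.13 in NC (adjusted p = 0.208), where the arrays of the 2 conditions also did not overlap. Its mean rise was lost in 9 of 26 alternatives (adjusted p up to 0.195), 7 of them with 1 array left out: NC aerobic replicate 3, NC anaerobic replicate 2, AAC aerobic replicate 1 or 3, AAC anaerobic replicate 1 or 2, or AAP anaerobic replicate 3. In the fit without AAP aerobic replicate 3, 3 members rose and 29 fell, the rise of RPS27A was 0.08 (adjusted p = 0.0302), and the other members named here kept their calls.

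**Figure D3:**
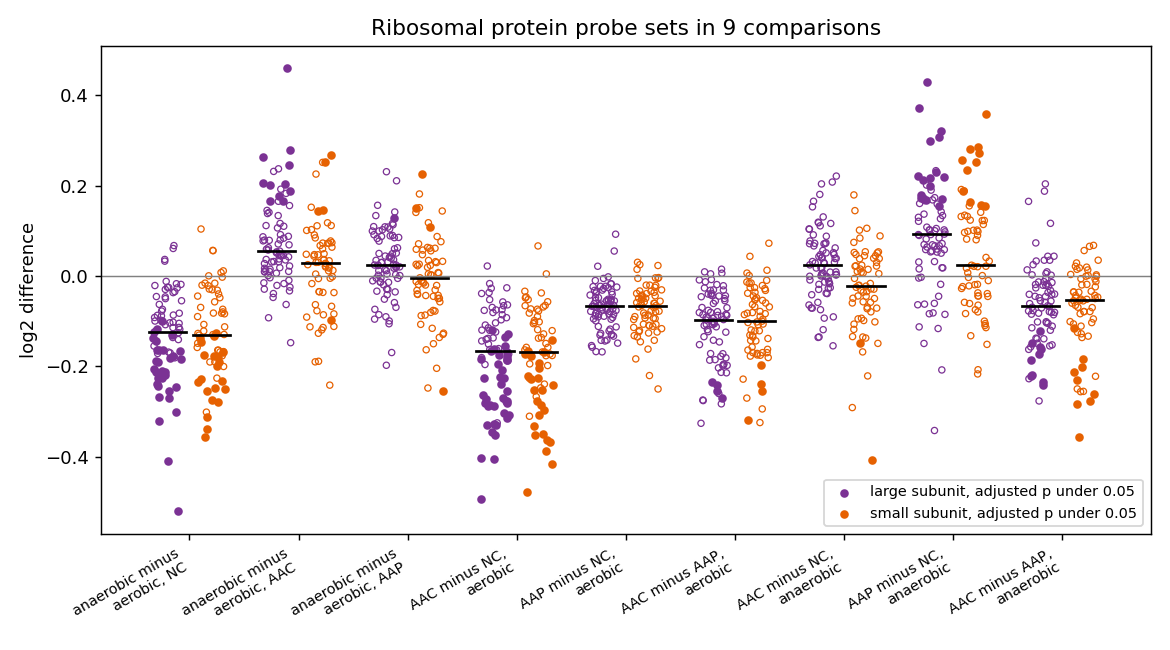
Log2 difference of each ribosomal protein probe set in 9 comparisons, with the large subunit in purple and the small subunit in orange. Filled points have an adjusted p under 0.05 and black bars mark medians, which are lowest for AAC minus NC in aerobic culture (-0.166 and -0.169).

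The remaining aerobic comparisons had few calls. Between AAP and NC, 0 of 142 members rose or fell in limma's fit and 5 had an unadjusted p under 0.05, beside 0.146% of all tested probe sets higher and 0.0546% lower. The differences ran from -0.25 to 0.09 with a median of -0.068 and were below 0 for 135 members. The median was -0.041 without AAP aerobic replicate 3, and 0 members were called in that fit and in every other alternative. Between AAC and AAP, 8 members fell and 0 rose, beside 1.58% of all tested probe sets lower and 2.38% higher, with a median of -0.097. Without AAP aerobic replicate 3, 51 members fell (median -0.111), beside 15.7% of all tested probe sets. Leaving out any other array of these groups gave 0 to 2 calls, and the fit to these groups alone gave 0.

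The members with the largest separated falls in AAC against AAP were RPL26A, RPS9B, RPL21B and RPL8B. RPL26A, for a protein near the exit of the peptide tunnel, read 10.93, 11.00 and 10.85 in AAP and 10.69, 10.65 and 10.64 in AAC. The AAC arrays were all lower, by 0.27 (SE 0.04, adjusted p = 0.0105). RPS9B and RPL21B differed by -0.26 and -0.25 and RPL8B by -0.24 (adjusted p = 0.0356, 0.0317 and 0.0187). For these genes AAP replicate 3 was the lowest array of its group. Without it the differences of the 4 genes were between -0.27 and -0.33 and all passed, while each was lost when AAP aerobic replicate 1 or 2 or AAC aerobic replicate 2 was left out, RPS9B and RPL21B also without either other AAC array and RPL8B without AAC aerobic replicate 3 (adjusted p up to 0.354).

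In anaerobic culture AAC and NC differed little in ribosomal protein messages. Of the members 2 fell and 0 rose, beside 5.29% of all tested probe sets lower and 6.71% higher, and the median was 0.007. RPS22B, for a small subunit protein, read 10.04, 10.45 and 10.54 in NC and 9.91, 10.02 and 9.88 in AAC. The groups were apart by a narrow gap, since NC replicate 1 was near the AAC values, and the difference was -0.41 (SE 0.10, adjusted p = 0.0183). RPS17A fell by 0.15 (SE 0.04, adjusted p = 0.0340). Both calls were lost without NC anaerobic replicate 2 or 3 or AAC anaerobic replicate 1, and that of RPS17A also without AAC anaerobic replicate 2 (adjusted p up to 0.0982 and 0.167). Leaving out any of these arrays gave 0 or 1 calls, and there were 17 without NC anaerobic replicate 1, 5 without AAC anaerobic replicate 3, and 7 without AAP aerobic replicate 3, when 3 rose and 4 fell. With quantile normalization 2 rose and 2 fell, and with median centring 1 each.

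Between AAP and NC without air, more members were called higher than lower, but their share passed that of probe sets in general only with all 6 compared arrays in the fit. Of the members 28 (19.7%) rose and 0 fell, beside 12.9% of all tested probe sets higher and 8.06% lower, with a median of 0.083 against 0.019 for all. The large subunit had 17 of 77 rising (median 0.093) and the small subunit 11 of 65 (median 0.024). Dimmer members made up 24 of the 28. Without the length trend 51 rose, with cyclic loess 17 rose (beside 9.22% of all) and 5 fell, and leaving out 1 array gave 5 to 42 calls. There were 5 (3.52%) without NC anaerobic replicate 2 or 3 or AAP anaerobic replicate 1, beside 4.49%, 4.98% and 5.15% of all tested probe sets higher, and 9 (6.34%) without AAP anaerobic replicate 2 or 3, beside 6.73% and 10.4%. Without NC anaerobic replicate 1, 22 rose (15.5%, beside 19.1%) and 16 fell. The ACT1 3′ minus 5′ signals were 0.68 to 0.80 in anaerobic NC and 0.73 to 1.12 in anaerobic AAP. Those of SRB4 were 1.754 to 1.853 and 1.825 to 1.948, and those of SPT15 were 0.911 to 1.024 and 1.094 to 1.291. The SPT15 values did not overlap, and the part of RNA quality in the difference was not tested.

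RPL13A had the largest rise in AAP without air, from 10.63, 10.37 and 10.36 in NC to 10.90, 10.79 and 10.96 in AAP. All AAP arrays were higher, by 0.43 (SE 0.12, adjusted p = 0.0241), although the call was lost without NC anaerobic replicate 2 or 3 or AAP anaerobic replicate 1 or 3 (adjusted p up to 0.100). RPL4B read 9.80, 9.82 and 9.83 in NC and 10.21, 10.27 and 10.09 in AAP. This clear separation gave 0.37 (SE 0.08, adjusted p = 0.00701), and the call held under every alternative run (adjusted p at most 0.0332). RPL22B, at 8.94, 8.81 and 8.87 in NC and 9.20, 9.13 and 9.26 in AAP, rose by 0.32 (SE 0.06, adjusted p = 0.00466), also under every alternative (at most 0.0288). RPS0A, whose protein is needed late in 40S maturation, rose by 0.36 (SE 0.11, adjusted p = 0.0307). Its call was lost in 5 of 15 alternatives, those without NC anaerobic replicate 2 or 3 or any anaerobic AAP array (adjusted p up to 0.128).

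Against AAP, AAC was lower for 19 members and higher for 0 in anaerobic culture, beside 19.7% of all tested probe sets lower and 13.3% higher, so this share was below that of probe sets in general. The median was -0.057, beside -0.026 for all. RPS26B, for a protein that lines the mRNA exit channel of the 40S subunit, read 11.12, 11.10 and 11.16 in AAP and 10.80, 10.81 and 10.70 in AAC. The values were tight within each strain and far apart between them, with a difference of -0.36 (SE 0.06, adjusted p = 0.00064). RPS9B differed by -0.28 (adjusted p = 0.00277). Both passed under every alternative run (adjusted p at most 0.00374 and 0.0136). RPS27A (-0.28, adjusted p = 0.0175) was lost without AAC or AAP anaerobic replicate 3 (adjusted p = 0.0717 and 0.0521), and RPS28B (-0.26, adjusted p = 0.0338), whose protein feeds back on the decay of its own message, was lost without any 1 of the 6 arrays compared (adjusted p up to 0.0977). After the length trend was removed 59 members (41.5%) fell, beside 18.9% of all tested probe sets lower. In that setting the members were called more often than probe sets in general. Leaving out 1 array gave 8 to 32 calls. There were 8 to 12 without AAC anaerobic replicate 1 or 3 or any anaerobic AAP array, and 32 without AAP aerobic replicate 3. The 3′ minus 5′ signals in anaerobic AAC and AAP were 0.536 to 0.736 and 0.727 to 1.122 for ACT1. They were 1.62 to 1.748 and 1.825 to 1.948 for SRB4, and 0.872 to 1.083 and 1.094 to 1.291 for SPT15. Those of SRB4 and SPT15 did not overlap, and the part of RNA quality in the difference was not tested.

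Whether the strains differed in their response to oxygen was tested with interaction terms. The response of AAC was above that of NC for 13 members and below it for 0, beside 1.67% of all tested probe sets higher and 1.20% lower, and the median was 0.189 for members and 0.014 for all. The large subunit had 10 of these members and the small subunit 3, and all 13 were in the dimmer 71. All 13 were also among the 113 own probe sets, and 0 of the 29 shared sets passed, those of RPL18B and RPL14B included. RPL18B on its own probe set fell by 0.26 in NC and rose by 0.46 in AAC, a difference of 0.72 (SE 0.14, adjusted p = 0.0142). The call of RPL18B was lost only without NC aerobic replicate 2 among all alternatives run (adjusted p = 0.0554). RPL14B (own set, 0.55, adjusted p = 0.0205) was lost without NC aerobic replicate 2, NC anaerobic replicate 2 or 3, AAC aerobic replicate 1 or 3 or AAC anaerobic replicate 2 (adjusted p up to 0.0698). RPL31B (0.47, adjusted p = 0.0436) was lost in 12 of 21 alternatives, among them those without any of the 6 NC arrays, AAC aerobic replicate 1 or 3 or AAC anaerobic replicate 1 or 2 (adjusted p up to 0.129). The count was 42 without AAP aerobic replicate 3, beside 7.04% of all tested probe sets higher. It was 36 (25.4%) in the fit to the 4 groups alone, beside 6.2% of all, and 5 (3.52%) with cyclic loess, beside 1.22%. Without NC aerobic replicate 2 it was 0, beside 0.382% of all. Leaving out another array of these 4 groups gave 2 to 7 calls, except for 11 without AAC aerobic replicate 2 and 23 without AAC anaerobic replicate 3. Without NC aerobic replicate 1 or 3 the members' shares were 3.52% and 2.82%, beside 0.691% and 0.782% of all tested probe sets higher. Without NC anaerobic replicate 1 the share was 4.93%, beside 2.15%.

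For AAP against NC the interaction was above 0 in 21 members and below 0 in 0, beside 8.02% of all tested probe sets higher and 4.47% lower, with a median of 0.139 beside 0.033. RPL13A (0.55, adjusted p = 0.0486), RPL4B (0.53, adjusted p = 0.0126) and RPS0A (0.49, adjusted p = 0.0463) had the largest values. RPL4B fell without air in NC, while its aerobic and anaerobic AAP arrays overlapped, and its interaction passed under every alternative (adjusted p at most 0.0386). The calls of RPL13A and RPS0A were each lost in at least 12 of 20 alternatives, including those without any aerobic NC array, NC anaerobic replicate 2 or 3, any anaerobic AAP array or AAP aerobic replicate 3 (adjusted p up to 0.115, and 0.0824 and 0.0805 without the last). Without AAP aerobic replicate 3, 6 members were called, beside 6.06% of all tested probe sets. With cyclic loess 5 were above 0 (3.52%, beside 4.78% of all) and 1 below, and with the length trend removed 45 were above (31.7%, beside 9.39% of all). Leaving out 1 array gave 4 to 33 calls. There were at most 10 without any aerobic NC array, NC anaerobic replicate 2 or 3 or any anaerobic AAP array, a share of 2.82% to 7.04% beside 2.35% to 7.48% of all tested probe sets higher, and 33 without AAP aerobic replicate 1. For AAC against AAP 0 of 142 members passed in limma's fit and in every alternative, 4 had an unadjusted p under 0.05, and 1.40% of all tested probe sets were higher and 2.15% lower.

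Paralogs were compared through the difference between the A and B copies within each array. It removes the fixed response of each probe set and shows whether the signal of 1 copy changed more than that of the other. It does not remove a compression of strong signals, and the copies of some pairs were of unlike brightness (values below). The part of brightness in the changes of pairs was not tested. Both copies were measured for 48 pairs, with the probe sets of a gene averaged. In the mean of the strains, growth without air changed the balance of 15 of 48 pairs. Of these 8 moved towards the A copy and 7 towards the B copy, so there was no common direction (median 0.007). Probe sets in general were called more often, with 31.2% higher and 30.4% lower in that comparison. The 48 pairs were tested together with all probe sets, with p-values adjusted over 5546 rows. The count was 13 to 16 when 1 array was left out and 15 or 16 under each other alternative, also where only probe sets of a single gene were used. The 6 pairs with the largest changes passed in all 27 alternatives.

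RPL22 moved towards its A copy without air. The A minus B difference in log2 signal was 1.96, 1.98 and 2.04 in aerobic NC and 2.26, 2.37 and 2.34 in anaerobic NC. In AAC it was 2.03, 1.94 and 1.92 with air and 2.11, 2.08 and 2.23 without, and in AAP it ran from 1.89 to 2.17 with air and from 2.16 to 2.25 without. The anaerobic arrays were higher in NC and AAC without overlap, and in AAP they overlapped. The mean change was 0.22 (SE 0.04, adjusted p = 8.47e-05).

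RPS27 also moved towards A, by 0.21 (SE 0.04, adjusted p = 0.000133). Its A minus B difference was -0.897, -0.955 and -1.004 with air and -0.81, -0.93 and -0.97 without in NC, where the conditions overlapped. In AAC it was -1.29, -1.23 and -1.37 with air and -0.95, -0.92 and -1.03 without, and in AAP -0.96, -0.86 and -1.09 with air and -0.75, -0.77 and -0.66 without. The aerobic AAC arrays were the lowest of all 18. The B copy itself fell by 0.08 in the mean of the strains (adjusted p = 0.0256), while RPS27A rose.

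RPL8 moved towards B with the smallest p of all pairs, by -0.15 (SE 0.02, adjusted p = 1.01e-05). The A minus B difference was 0.07, 0.03 and 0.04 with air and -0.09, -0.14 and -0.11 without in NC, 0.14, 0.18 and 0.23 with air and 0.01, 0.03 and -0.05 without in AAC, and 0.06, 0.03 and 0.03 with air and -0.11, -0.05 and -0.06 without in AAP. In each strain all aerobic arrays were above all anaerobic ones. The 2 probe sets of RPL8A had disagreed above, and with its own probe set alone the change of the pair still passed (adjusted p = 0.000573). RPS7 moved towards B in the mean as well (-0.18, SE 0.05, adjusted p = 0.0102), but not in every strain. Its change was -0.35 in AAC (adjusted p = 0.00665), -0.23 in AAP (adjusted p = 0.0699) and 0.05 in NC (adjusted p = 0.711). In the mean of the strains RPS23 (0.13, SE 0.03, adjusted p = 0.00116) and RPS18 (0.12, SE 0.03, adjusted p = 0.000887) moved towards A.

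**Figure D4:**
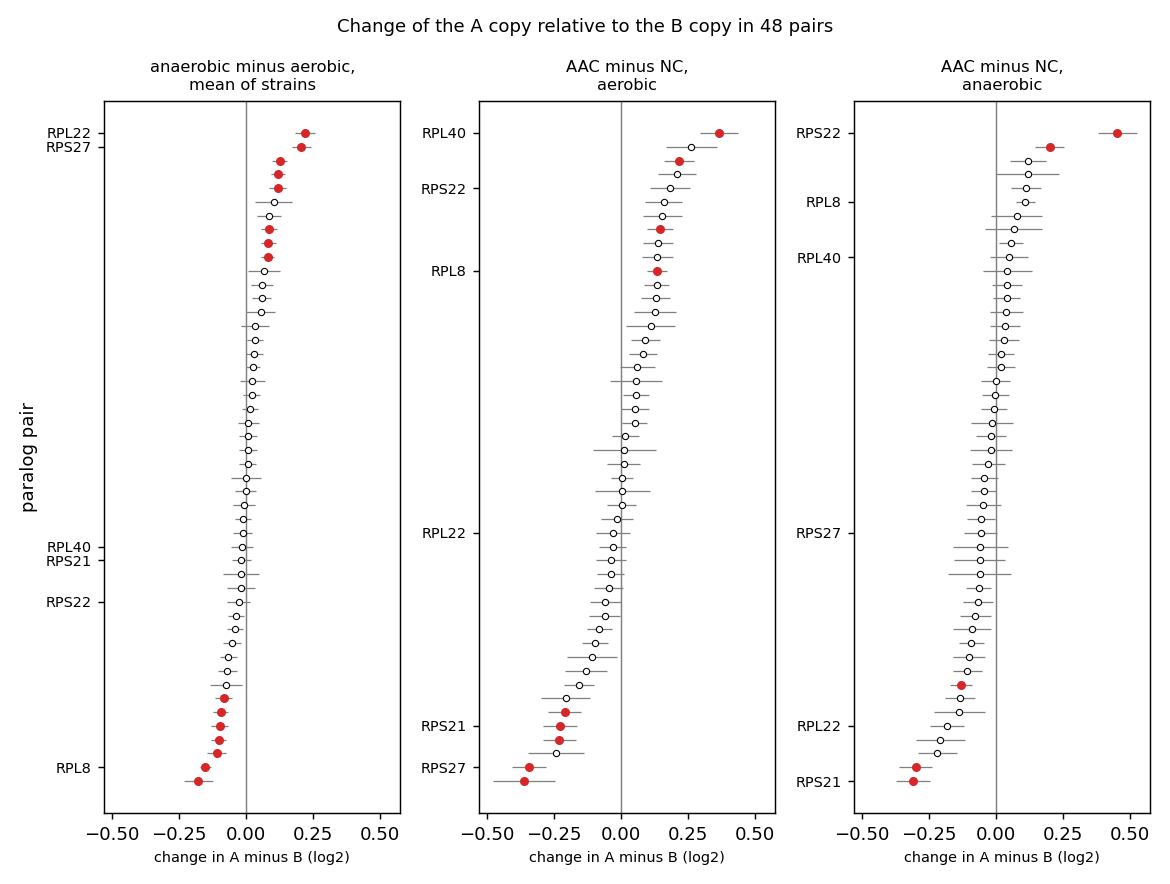
Change in the A minus B log2 difference for 48 paralog pairs in 3 comparisons, each panel sorted by its own values, with bars for 1 SE, red points for an adjusted p under 0.05 and names for the 6 pairs that are also plotted by array. The red points lie on both sides of 0 in each panel: 8 and 7 for oxygen, 4 and 5 for AAC minus NC with air, and 2 and 3 without.

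Between AAC and NC in aerobic culture the balance changed for 9 of 48 pairs, 4 towards A and 5 towards B. This share was near that of all tested probe sets, with 9.42% higher and 9.99% lower. RPL40, whose copies encode the same large subunit protein fused to ubiquitin, had an A minus B difference of 0.79, 0.73 and 0.72 in NC and of 1.17, 1.05 and 1.13 in AAC. The change of 0.37 (SE 0.07, adjusted p = 0.00388) came with a fall of RPL40B (-0.40, adjusted p = 0.00438), while RPL40A differed by -0.04 (adjusted p = 0.736). RPS27 shifted towards B by -0.34 (SE 0.06, adjusted p = 0.00289), from -0.897, -0.955 and -1.004 to -1.29, -1.23 and -1.37. Neither pair overlapped between the strains, and both passed in all 16 alternatives.

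The other named pairs were less stable in that comparison. RPS1 (-0.23, adjusted p = 0.0185), RPS21 (-0.23, adjusted p = 0.0216) and RPS19 (-0.36, adjusted p = 0.0398) moved towards B, and RPL31 (0.22, adjusted p = 0.0174) towards A. RPS1 was lost without NC aerobic replicate 1 or AAC aerobic replicate 1 or 2, and RPL31 without NC aerobic replicate 1 or 2 or AAC aerobic replicate 1 or 3. RPS21 was lost without any aerobic NC array or AAC aerobic replicate 1 or 3, and RPS19 without any of the 6 arrays compared and on own probe sets. The adjusted p over the alternatives reached 0.0761, 0.068, 0.075 and 0.161 for these 4 in the same order. The count of called pairs was 3 to 17 when 1 array was left out, with 3 without NC aerobic replicate 1 or 2, 4 without replicate 3 of NC or of AAC, 5 without AAC aerobic replicate 2 and 17 without AAP aerobic replicate 3. The count was 20 in the fit to these groups alone.

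Without air, AAC and NC differed in the balance of 5 of 48 pairs, although only 2 single members differed. Of all tested probe sets 6.71% were higher and 5.29% lower, so the share of pairs called was no larger than that. RPS22 had an A minus B difference of 0.56, 0.55 and 0.41 in NC and of 0.87, 1.01 and 0.99 in AAC, a change of 0.45 (SE 0.07, adjusted p = 0.000935). RPS21, at -0.16, -0.16 and -0.01 in NC and -0.45, -0.48 and -0.33 in AAC, changed by -0.31 (SE 0.06, adjusted p = 0.00498). RPL9, at 0.75, 0.86 and 0.89 in NC and 0.60, 0.44 and 0.57 in AAC, changed by -0.30 (SE 0.06, adjusted p = 0.00531). None of these 3 pairs overlapped between the strains, and all passed in the 16 alternatives run (adjusted p at most 0.0339). RPS9 (0.20, adjusted p = 0.0263) was lost in 5 of 16 (adjusted p up to 0.140), among them those without NC anaerobic replicate 2 or 3 or AAC anaerobic replicate 1 or 2. Leaving out 1 array gave 3 to 10 pairs, with 3 without NC anaerobic replicate 2 or 3 or AAC anaerobic replicate 2, 10 without NC anaerobic replicate 1 and 8 without AAC anaerobic replicate 3 or AAP aerobic replicate 3.

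**Figure D5:**
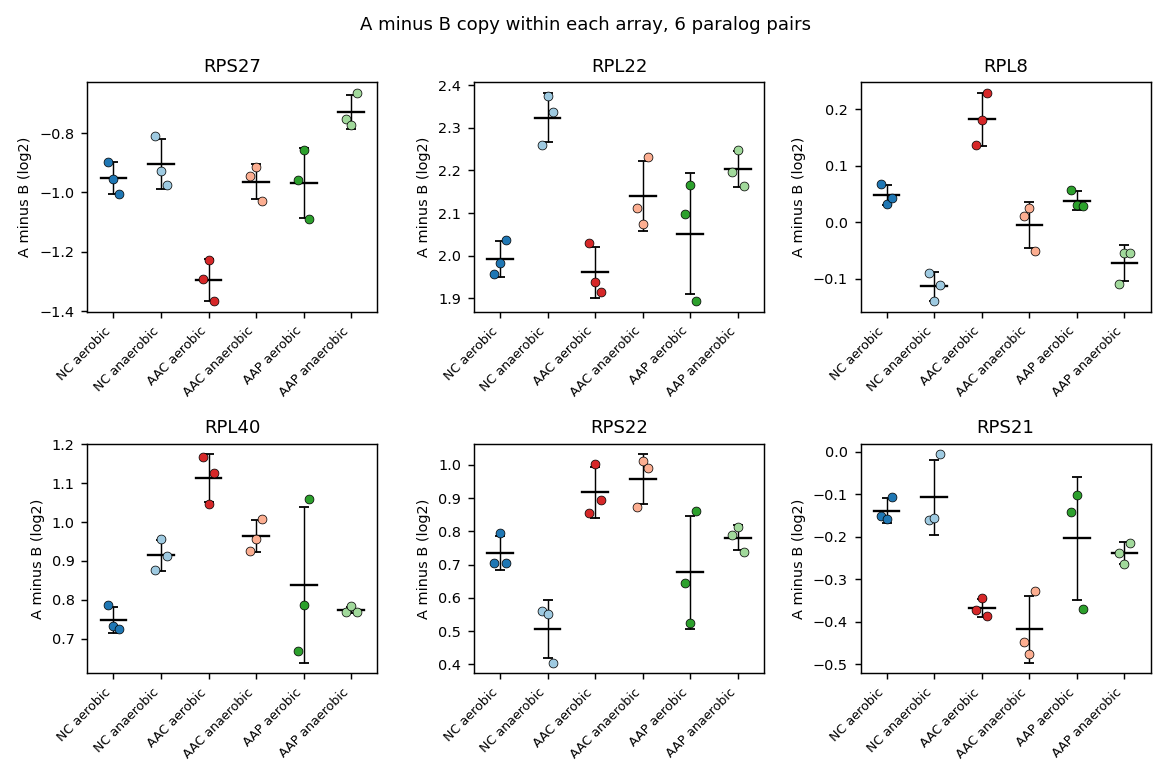
A minus B difference in log2 signal on each array for 6 paralog pairs, with lines for the group mean and bars for 1 SD (n = 3). RPS27 is lowest in aerobic AAC, RPL22 highest in anaerobic NC, and RPS22 lowest in anaerobic NC, and within aerobic AAP replicate 3 is nearest to the aerobic AAC points for RPS27, RPL40, RPS22 and RPS21.

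Calls of pairs in the other comparisons are given as counts. Of 48 pairs the balance changed for 9 with oxygen in NC, 11 in AAC and 6 in AAP. Probe sets in general were called more often, with 22.2%, 21.7% and 21.2% higher and 28.0%, 22.8% and 17.2% lower. Between AAP and NC the balance changed for 0 pairs with air (1 at an unadjusted p under 0.05, and 0 in every alternative). It changed for 7 without air, beside 12.9% of all tested probe sets higher and 8.06% lower. Between AAC and AAP it changed for 3 pairs with air, beside 2.38% of all higher and 1.58% lower. Without air it changed for 9, beside 13.3% higher and 19.7% lower. The count of 3 was 1 with the replicate number as a block, 16 without AAP aerobic replicate 3, and 0 without any other aerobic array of these strains. For the interactions, 0 pairs passed for AAC against NC (16 at an unadjusted p under 0.05) and 0 for AAC against AAP (2 at an unadjusted p under 0.05). For AAP against NC 6 pairs passed, a share near that of all tested probe sets (8.02% higher and 4.47% lower). Leaving out 1 array moved several of the pair counts by over 1.5 times. They were 7 without AAC aerobic replicate 3 for oxygen in AAC, 1 to 4 without NC anaerobic replicate 2 or 3 or any anaerobic AAP array and 13 and 15 without NC anaerobic replicate 1 and AAP aerobic replicate 3 for AAP against NC, and 5 without AAC anaerobic replicate 3 or AAP anaerobic replicate 2 or 3 and 15 without AAP aerobic replicate 3 for AAC against AAP. For the interactions of AAC and of AAP with NC they were 8 and 2 without AAP aerobic replicate 3, 3 and 11 without NC anaerobic replicate 1, and 1 for AAC without AAC anaerobic replicate 3, and 0 or 1 for AAP without any aerobic NC array, NC anaerobic replicate 2 or 3 or any anaerobic AAP array. RPL4 had the largest of the 6 called interactions by size (-0.36, adjusted p = 0.0361), and it is the pair in which a copy, RPL4A, has only a shared probe set.

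Some members are known for regulation of their own or for special roles. RPL3, at the peptidyl transferase centre, had group means of log2 signal from 11.54 to 11.73, fell without air in NC by 0.19 (adjusted p = 0.00115) and was lower in AAC than in NC with air by -0.18 (adjusted p = 0.00729). RPL10, which joins the large subunit late, had group means from 12.04 to 12.15 and passed in no comparison of the fit to all arrays (for the mean oxygen effect without AAP aerobic replicate 3 it was -0.05, adjusted p = 0.0479). RPL30, a classic case of a protein that blocks the splicing of its own message, had group means from 11.80 to 11.87 and passed in no comparison of that fit either. RPS31, the other ubiquitin fusion gene, had group means from 11.80 to 11.93 and also passed in none. RPS14B, whose message is held down by its own protein, fell without air in NC by 0.25 (adjusted p = 0.0116) and RPS14A by 0.13 (adjusted p = 0.0181). RPL22A fell in NC by 0.19 (adjusted p = 0.0142), less than its B copy.

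Departures from the members' median in each group were largest for the own probe set of RPL18B, with an SD of 0.169 over the 6 group means. The shared probe set of RPL18B had an SD of only 0.018. Against the members' median, after each member was centred on its own mean, the own set stood at -0.28 in aerobic AAC and 0.17 in anaerobic AAC. The shared set stood at 0.02 in both. RPL13A followed (SD 0.149), at -0.19 in aerobic AAC and 0.23 in anaerobic AAP. RPL41A, for the smallest ribosomal protein and measured only by a shared probe set, came next (SD 0.148), at 0.22 in anaerobic NC and -0.19 in anaerobic AAP. Its anaerobic NC arrays read 11.45, 11.92 and 11.98, so that replicate 1 stood below the other 2. RPL22B (SD 0.143) stood at -0.25 in anaerobic NC.

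Genes that act with the ribosomal proteins were read beside them. Of the 5 acidic stalk proteins, RPP1B was lower in AAC than in NC with air (-0.17, adjusted p = 0.0214), beside 9.99% of all tested probe sets. Without AAP aerobic replicate 3 in the fit RPP2B was lower there as well (-0.13, adjusted p = 0.0366). No stalk gene passed for oxygen in the mean of the strains. In NC none passed in the fit to all arrays, and RPP1B did without that array (-0.10, adjusted p = 0.0329). RPP0 and RPP1B were lower in AAC than in AAP without air (-0.16 each), beside 19.7% of all tested probe sets. Of 9 regulators of ribosomal protein transcription, RAP1 was lower in AAC than in NC with air (-0.28, adjusted p = 0.0480), beside 9.99% of all tested probe sets. Without AAP aerobic replicate 3 in the fit HMO1 was lower there as well (-0.30, adjusted p = 0.0879 with it and 0.00976 without). SCH9, the kinase that links nutrients to ribosome synthesis, fell without air in NC (-0.27, adjusted p = 0.0101) and by as much in AAC (-0.27, adjusted p = 0.0120), where the members' median was above 0. SFP1 (-0.16, adjusted p = 0.0477) and ABF1 (-0.28, adjusted p = 0.00328) fell in AAC as well, beside 22.8% of all tested probe sets lower there. In the mean of the strains SCH9 and ABF1 fell (-0.17 each), beside 30.4% of all tested probe sets. FHL1, HMO1, TOR1 and CRF1 passed in no comparison of the fit to all arrays. Without air 3 of the 9 were higher in AAP than in NC, beside 12.9% of all tested probe sets: IFH1 (0.13), SFP1 (0.19) and SCH9 (0.27). Without AAP aerobic replicate 3 in the fit 5 were higher, with RAP1 (0.23, adjusted p = 0.00353) and FHL1 (0.14, adjusted p = 0.0493) added. In anaerobic culture 5 of the 9 were lower in AAC than in AAP, beside 19.7% of all tested probe sets.

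Dedicated chaperones escort single ribosomal proteins to their place of assembly. In NC 5 of 9 fell without air, beside 28.0% of all tested probe sets, among them RRB1, the chaperone of Rpl3, by 0.54 (adjusted p = 0.00493) and SYO1, which carries Rpl5 and Rpl11, by 0.48 (adjusted p = 1.54e-05). In AAC against NC with air 5 of 9 fell, beside 9.99% of all, including BCP1, for Rpl23 (-0.34, adjusted p = 0.0270), and ACL4, for Rpl4 (-0.28, adjusted p = 0.0116). The medians of the list were -0.200 and -0.264 in these comparisons, beside -0.129 and -0.168 for the members, and the difference between the lists was not tested. In the mean of the strains 4 fell, beside 30.4% of all, and FAP7, for Rps14, rose by 0.11 (adjusted p = 0.0149).

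Proteins that sit on the ribosome without being part of it moved in both directions with oxygen. In the mean of the strains 4 of 10 probe sets fell without air, not far from the 30.4% of all tested probe sets, and these were both probe sets of SSB1 and those of SSB2 and SSZ1, which form the chaperone system at the tunnel exit together with ZUO1. SSB2 fell by 0.43 (adjusted p = 0.000508) and SSZ1 by 0.33 (adjusted p = 0.0323). SSZ1 read 9.76, 9.66 and 8.54 in aerobic AAP, and without replicate 3 the falls were 0.52 for SSB2 and 0.46 for SSZ1 (adjusted p = 9.91e-09 and 1.03e-06). EGD1 (0.12, adjusted p = 0.00989) and EGD2 (0.18, adjusted p = 0.00649), the subunits of the nascent polypeptide-associated complex, rose, by 0.10 and 0.14 without that array (adjusted p = 0.0110 and 0.00514). In NC 6 of the 10 fell, beside 28.0% of all, including ASC1, a scaffold on the small subunit (-0.19, adjusted p = 0.0126). In AAC against NC with air 2 of the 10 fell and 0 rose, beside 9.99% of all tested probe sets lower. They were STM1, which holds idle ribosomes together (-0.25, adjusted p = 0.00219), and BTT1 (-0.19, adjusted p = 0.0307). The median of the list was -0.251 there, and 8 fell without AAP aerobic replicate 3 in the fit.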

How the data were processed

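Each array has 1 deposited value per probe set, and the range of the values marks them as log2 signals. The submitters' processing notes name PLIER for summarization and R 2.10.1. Which background correction, normalization and log base were used is not given in the sources used here. Strong signals near the top of an array's scale may be compressed, and most members lie there. Symbols are those of the platform annotation, 12 of them updated through the RefSeq gene table. The table lists 10928 probe sets, 7244 with a single gene symbol, 1 with more and 3683 unnamed. The members, lists and tests were chosen with earlier results of these data known.

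All 18 arrays entered 1 linear model with 6 group means in limma 3.58.1 (lmFit and eBayes, R 4.3.3, 12 residual and 3.1 prior degrees of freedom). P-values are two-sided and adjusted by Benjamini and Hochberg over the 5498 tested probe sets of a comparison, with a threshold of 0.05. "Rose" and "fell" are used of what passed it, and errors are standard errors of the model with 3 arrays a group. The number of arrays limits the precision. The model was tested on simulated data first.

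Members are named by a rule: per comparison up to 4 each way with the largest difference among those called and without overlap of arrays, up to 3 each way per interaction, up to 6 pairs per comparison of pairs, the 4 largest departures from the members' median, and 10 genes always. Other members are named where a count was small or a comparison turned on them, after their values were seen. Alternatives were quantile and cyclic loess normalization, median centring, removal of a trend on gene length (span 0.5; RefSeq lengths, introns included), a filter on dim probe sets, trend and robust settings, the groups compared alone, the replicate number as a block, and each array left out. Pairs on own probe sets only were added after the data were seen. Promoter and protein sequences were not analysed here. Some genes that the rule names are not reported here.

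The labels call the arrays biological replicates and do not say that a number marks a shared batch. In their departures from group means, same-numbered arrays correlated above 0.1 in all 3 pairs for NC with AAC (0.126, 0.233 and 0.326) and AAC with AAP (0.168, 0.249 and 0.456) with air. The value of 0.456 is that of AAP aerobic replicate 3, whose values go against its label. For NC with AAC without air the correlations were 0.645, -0.024 and 0.459. Whether the numbers mark shared batches was not tested.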

Additional observations from a re-analysis of the deposited data

Results flagged for a closer look

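The oxygen response differed between strains in tests of the difference itself. Between AAC and NC it did so for 13 members, beside 1.67% of all tested probe sets higher and 1.20% lower, and for 0 members without NC aerobic replicate 2 and 42 without AAP aerobic replicate 3. The largest values were those of RPL18B (0.716, own probe set), RPL14B (0.550, own probe set) and RPL31B (0.471). Between AAP and NC it did so for 21 members, beside 8.02% of all tested probe sets higher and 4.47% lower, led by RPL13A (0.552), RPL4B (0.526) and RPS0A (0.493). Without AAP aerobic replicate 3 there were 6 (4.23%, beside 6.06% of all higher), and RPL13A and RPS0A lost their calls (adjusted p = 0.0824 and 0.0805). All these values are log2 differences between the anaerobic minus aerobic changes of the strains, positive where NC had the lower one.

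The balance of paralogs responded to oxygen differently in AAP and NC for 6 of 48 pairs. This share was near that of all tested probe sets, with 8.02% higher and 4.47% lower. The change in A minus B of AAP less that of NC was -0.358 for RPL4, 0.333 for RPS22, -0.325 for RPL14, 0.296 for RPS1, -0.237 for RPS25 and -0.217 for RPL17. Without AAP aerobic replicate 3, RPS22 kept its call and the other 5 lost it. Adjusted p reached 0.090 to 0.122 over the alternatives for the 6 pairs.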

How the results depend on the processing

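The rule named 62 results of genes and pairs because they were called, and none of these changed direction under any alternative run. Of their 1083 recomputed values 810 stayed on their side of the threshold while 273 lost their call. Results named on other grounds, such as those of the genes always named, were not part of this count. The members' median did turn sign in 4 of 13 comparisons, with ranges of -0.028 to 0.077 for oxygen in AAC, -0.017 to 0.036 for oxygen in AAP, -0.023 to 0.028 for AAC against NC without air and -0.05 to 0.072 for the interaction of AAC and AAP. Counts of members called that moved by over 1.5 times were as follows. With quantile normalization they were 28 for the mean oxygen effect, 40 for AAC against NC and 13 for AAC against AAP with air, 4 for AAC against NC without air, and 12 for the interaction of AAP and NC. Cyclic loess gave 26 for the mean oxygen effect, 31 for oxygen in NC, 23 for AAC against NC and 5 for AAC against AAP with air, and 5 and 6 for the interactions of AAC and of AAP with NC. Median centring gave 3 for oxygen in AAP, and 14 with air and 12 without for AAC against AAP. With the gene length trend removed they were 30 for the mean oxygen effect, 4 with air and 59 without for AAC against AAP, 51 for AAP against NC without air, and 5 and 45 for the interactions of AAC and of AAP with NC. Leaving out dim probe sets gave 8 and trend with robust settings 6 for the interaction of AAC and NC, and the latter gave 3 for oxygen in AAP. In fits to the groups compared alone the counts were 2 for oxygen in AAP, 0 for AAC against AAP with air, 0 for AAC against NC without air, 36 and 7 for the interactions of AAC and of AAP with NC, and 20 with air and 3 without air for pairs in AAC against NC.

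Leaving out 1 array gave 13 to 32 members for the mean oxygen effect, 27 to 62 for oxygen in NC, 6 to 24 in AAC and 0 to 7 in AAP. It gave 27 to 74 for AAC against NC with air and 0 to 17 without, 0 to 51 and 8 to 32 for AAC against AAP, 0 and 5 to 42 for AAP against NC, 0 to 42 and 4 to 33 for the interactions of AAC and of AAP with NC, and 0 for that of AAC and AAP. For pairs it gave 13 to 16 for the mean oxygen effect and 3 to 17 with air and 3 to 10 without for AAC against NC.

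With the replicate number as a block 71 members were called for AAC against NC and 8 for AAC against AAP with air, where the numbers count as pairing. For the other comparisons the block moved no count of members by over 1.5 times (54 for oxygen in NC, 17 in AAC, 35 for AAP against NC without air).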
